A study of Mus musculus with 12 samples.

Results

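RNA sequencing of 12 mouse hearts was examined for 10 genes of white and brown fat cells, namely Adipoq, Plin1, Plin4, Cidec, Cidea, Ucp1, Fabp4, Lep, Retn and Cfd. The genes were taken from the count table by name, and 10 of its 53465 genes carried these names. They were chosen by their levels in these same libraries, where some of them had been seen to vary between hearts, so their levels, fold changes and numbers of calls are given as a description, with no test. All 10 genes had fragments in at least 1 library, and 9 passed the filter on low counts and entered the model, while Lep did not.

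The study asked how loss of ADAM17, a membrane protease, in heart muscle cells affects the injury caused by doxorubicin (DOX), an anthracycline drug against cancer that damages the heart. Mice of both genotypes, A17fl/fl and A17α-MHCKO (FLOXP and MKO in the sample titles), received normal saline (NS) or DOX, which gave 4 groups of 3 mice with 1 library per mouse. A17fl/fl mice (ADAM17flox/flox, on a C57BL/6J background) carried the floxed allele without Cre, and their A17α-MHCKO littermates (ADAM17alpha-MHCKO) also carried Cre under the α-MHC promoter, which removes exon 2 of the gene in cardiomyocytes only, so the gene stays intact in the other cells of the heart. All 12 mice thus carried floxed alleles, and no group carried Cre without them. DOX mice received 4 weekly intraperitoneal injections of 5 mg/kg, the last on day 21, 20 mg/kg in total, and NS mice received saline in the same volume. Hearts were taken 4 weeks after the last injection. The mice were males aged 8 weeks at the start. The labels give the tissue as heart, the study's methods as myocardium and its results as left ventricle.

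Fat cells store triglyceride in lipid droplets, which are coated by perilipins and by proteins of the CIDE family, and they release signal proteins into the blood. Brown fat cells also burn fuel for heat through UCP1, an uncoupling protein of the inner mitochondrial membrane. Heart muscle burns fatty acids without storing much fat, and fat lies on the outside of the heart, around its base and large vessels.

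The promoters of 8 members were taken from RefSeq on build GRCm38.p6, as 250 bases before the start of transcription, and none was used for Fabp4 and Cidea. Those of Adipoq and Cfd are shown since Cfd followed Adipoq more closely across the libraries than any other member did. That of Plin1 is shown since matches lay at more places in it than in any other member's. That of Ucp1 is shown since this gene, like Lep with its few fragments, did not keep a fixed proportion to Adipoq. Capitals mark matches to TTGCNNAA, a C/EBP-type motif, in Plin1, and to AGGTCA, the core of nuclear receptor sites, in Ucp1.
Adipoq, chr16:23146286-23146535, plus strand: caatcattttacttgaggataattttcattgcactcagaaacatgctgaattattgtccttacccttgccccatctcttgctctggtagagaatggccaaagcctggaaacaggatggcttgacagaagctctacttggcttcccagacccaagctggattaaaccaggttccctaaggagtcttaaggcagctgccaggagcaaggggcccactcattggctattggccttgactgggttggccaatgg
Cfd, chr10:79890603-79890852, plus strand: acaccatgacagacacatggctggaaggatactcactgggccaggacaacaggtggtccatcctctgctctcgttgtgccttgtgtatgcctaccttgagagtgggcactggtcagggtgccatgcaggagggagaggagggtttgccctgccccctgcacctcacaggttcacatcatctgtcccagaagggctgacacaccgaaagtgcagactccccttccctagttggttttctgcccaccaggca
Plin1, chr7:79732777-79733026, minus strand: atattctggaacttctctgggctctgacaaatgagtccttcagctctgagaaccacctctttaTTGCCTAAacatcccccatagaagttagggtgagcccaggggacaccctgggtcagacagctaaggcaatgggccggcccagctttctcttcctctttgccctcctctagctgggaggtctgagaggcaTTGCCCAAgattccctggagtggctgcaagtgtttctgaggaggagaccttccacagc
Ucp1, chr8:83290098-83290347, plus strand: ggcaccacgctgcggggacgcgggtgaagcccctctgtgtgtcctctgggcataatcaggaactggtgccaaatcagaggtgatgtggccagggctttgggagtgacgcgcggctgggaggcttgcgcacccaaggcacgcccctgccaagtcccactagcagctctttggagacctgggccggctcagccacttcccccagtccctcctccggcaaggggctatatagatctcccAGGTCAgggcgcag

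On both strands, TTGCNNAA was found in 3 of 8 members (Plin1, Lep and 1 of the 2 windows of Cidec) and in 9.56% of 32851 mouse promoters of the same length. In Plin1 it lay at 2 places, from base -187 to -180 and from base -58 to -51 counted from the start, and in Lep from base -55 to -48. AGGTCA was found in 1 of 8 members, Ucp1, from base -14 to -9, and in 14.0% of all promoters. TATAAA, found in 12.4% of all promoters, was in 0 of 8, and so was the direct repeat of AGGTCA with 1 base between, which contains the single motif and was found in 0.0335% of promoters. A match describes the letters only, and the absence of a match says nothing about a factor outside these windows.

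The libraries held between 15950717 and 21725076 counted fragments, with a median of 16413855. Adam17 itself was at 43.6 to 70.9 CPM in the 6 A17fl/fl libraries and at 27.9 to 36.8 CPM in the 6 A17α-MHCKO libraries, counted over the whole gene, and these did not overlap (CPM, the count as a share of the library total, TMM-normalized). Heart muscle markers were present in all 12, with 10 genes summing to between 24165 and 56428 CPM. Replicate 1 of A17fl/fl + NS stood apart, with a mean correlation to the other libraries of 0.900 against 0.948 to 0.966, and with a summed level of 8 macrophage markers of 2523 CPM against 696 to 1031. The lowest sum of heart muscle markers was also in this library.

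The 10 genes differed in how much they varied. By median FPKM, which divides by gene length and so allows genes to be compared, Fabp4 was the highest at 137, followed by Cidea at 21.2, Cfd at 17.2, Plin4 at 16.3, Adipoq at 2.52, Cidec at 1.92, Retn at 1.53, Ucp1 at 0.590, Plin1 at 0.510 and Lep at 0.0509. Neighbours in this order overlapped in their range over the 12 libraries in all but 2 places. Fabp4 (69.2 to 204) lay above Cidea (14.5 to 29.4), and Plin4 (11.2 to 27.1) lay above Adipoq (0 to 6.10). On the log2 CPM scale, the SD over the 12 libraries was 0.41 for Plin4, 0.29 for Cidea and 0.43 for Fabp4. It was 1.90 for Adipoq, 2.08 for Plin1, 2.03 for Cidec, 1.68 for Retn, 2.09 for Cfd and 2.25 for Ucp1. Lep lay in between, at 1.20.

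**Figure D1:**
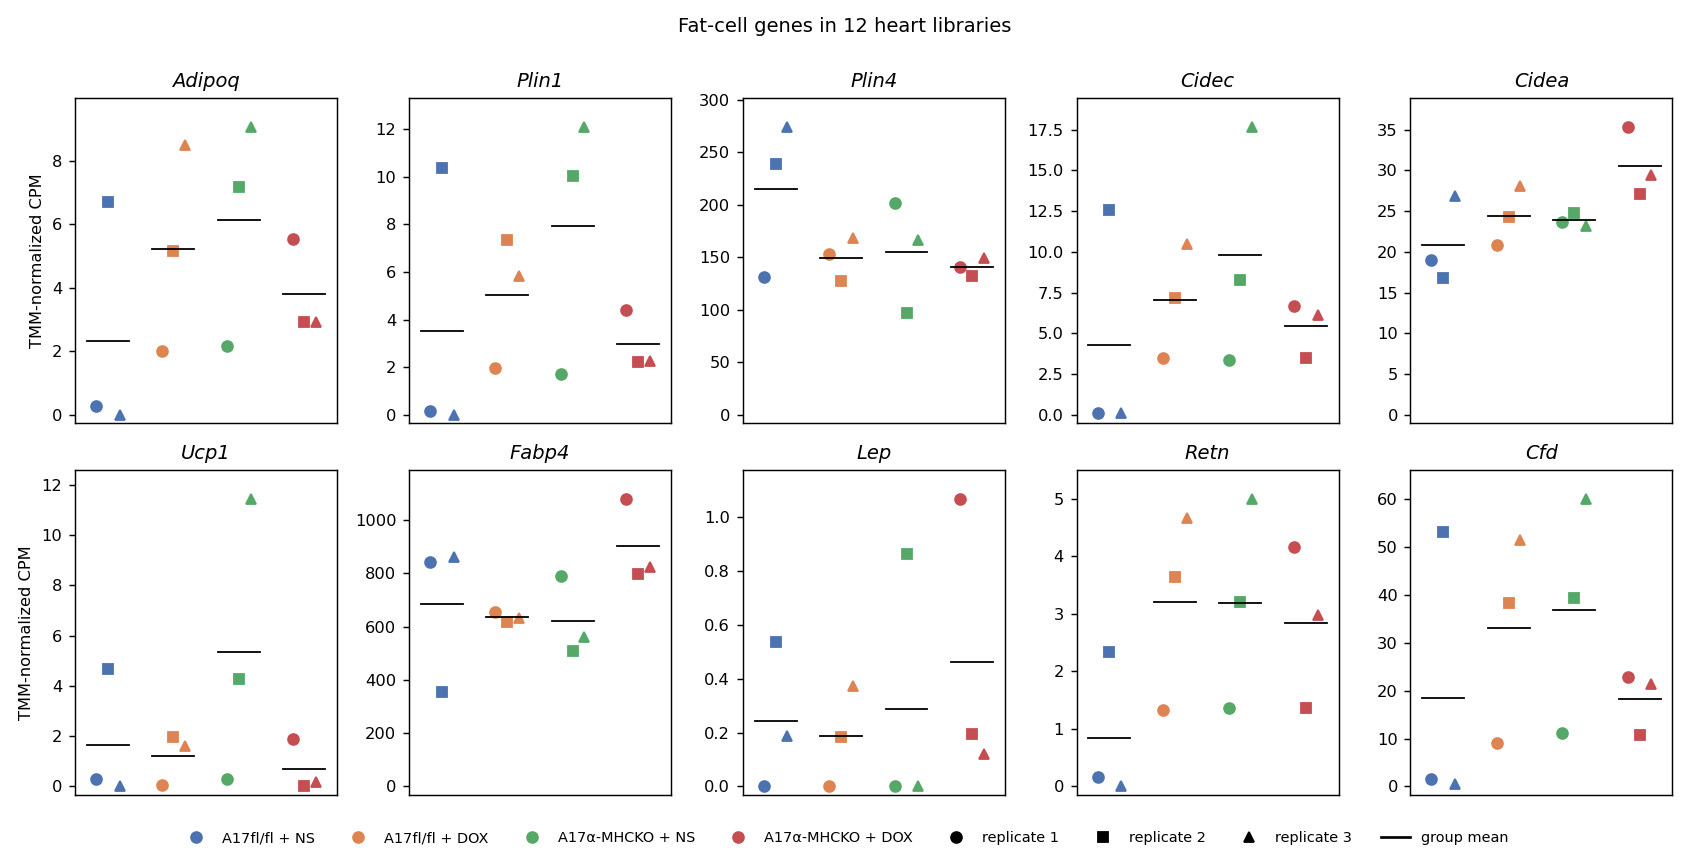
TMM-normalized CPM (vertical axes, linear, separate for each gene) of the 10 genes in the 12 libraries, by group (colour) and replicate (shape), with the mean of each group of 3 as a line. Adipoq, Plin1, Cidec, Retn and Cfd were close to 0 in replicates 1 and 3 of A17fl/fl + NS, while Plin4, Cidea and Fabp4 were present in every library.

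Adipoq encodes adiponectin, a hormone made by fat cells. In A17fl/fl + NS, Adipoq was at 0.289, 6.70 and 0 CPM in replicates 1, 2 and 3 (5, 112 and 0 fragments), and in A17fl/fl + DOX at 2.01, 5.17 and 8.51 CPM. In A17α-MHCKO + NS it was at 2.16, 7.17 and 9.07 CPM, and in A17α-MHCKO + DOX at 5.54, 2.92 and 2.91 CPM. Replicates 1 and 3 of the floxed saline group were thus nearly without Adipoq, and the 9 hearts of the other 3 groups all lay above them. Replicate 2 was exceeded by 3 hearts, replicate 3 of A17fl/fl + DOX and replicates 2 and 3 of A17α-MHCKO + NS. A count of 0 in replicate 3 allows up to 3 fragments, or 0.188 CPM, so replicate 2 was at least 35.7-fold higher than replicate 3. The group means were 2.33 ± 3.79 CPM in A17fl/fl + NS, 3.79 ± 1.51 in A17α-MHCKO + DOX, 5.23 ± 3.25 in A17fl/fl + DOX and 6.13 ± 3.57 in A17α-MHCKO + NS (SD, n = 3), and every neighbouring pair in this order overlapped. In bulk RNA, fewer fat cells and less of the transcript per fat cell cannot be told apart.

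Cfd encodes adipsin (complement factor D), a serine protease of the alternative complement pathway that fat cells secrete. Cfd was at 1.62, 53.1 and 0.439 CPM in replicates 1 to 3 of A17fl/fl + NS and at 9.05, 38.4 and 51.5 CPM in A17fl/fl + DOX. It was at 11.1, 39.4 and 60.1 CPM in A17α-MHCKO + NS and at 22.8, 10.7 and 21.4 CPM in A17α-MHCKO + DOX. The same 2 saline hearts were lowest, and Cfd, which has the most fragments of the varying genes, was still detected in both, with 28 and 7 fragments. Retn, the gene of resistin, another secreted product of mouse fat cells, was at 0.173, 2.33 and 0 CPM in A17fl/fl + NS and at 1.32, 3.63 and 4.66 CPM in A17fl/fl + DOX. In A17α-MHCKO + NS Retn was at 1.36, 3.20 and 5.00 CPM, and in A17α-MHCKO + DOX at 4.15, 1.36 and 2.98 CPM. Within each group, Retn put the 3 hearts in the same order as Cfd.

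Plin1 encodes perilipin 1, the droplet coat that guards stored triglyceride from lipases. Plin1 was at 0.173, 10.4 and 0 CPM in A17fl/fl + NS, at 1.95, 7.32 and 5.84 CPM in A17fl/fl + DOX, at 1.73, 10.02 and 12.1 CPM in A17α-MHCKO + NS and at 4.41, 2.21 and 2.25 CPM in A17α-MHCKO + DOX. Cidec encodes a droplet protein that drives small droplets to fuse into large ones. Cidec was at 0.115, 12.6 and 0.125 CPM in A17fl/fl + NS, at 3.46, 7.20 and 10.5 CPM in A17fl/fl + DOX, at 3.40, 8.29 and 17.7 CPM in A17α-MHCKO + NS and at 6.67, 3.51 and 6.13 CPM in A17α-MHCKO + DOX. Both droplet genes were near 0 in the same 2 saline hearts as the secreted products, and high in replicate 2 of that group.

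Lep, the gene of leptin, the satiety hormone of fat, was close to the limit of detection. It had 0, 9 and 3 fragments in A17fl/fl + NS, 0, 3 and 6 in A17fl/fl + DOX, 0, 20 and 0 in A17α-MHCKO + NS, and 17, 3 and 2 in A17α-MHCKO + DOX. In the 4 libraries at 0, up to 3 fragments are allowed, or 0.173 to 0.189 CPM, and no difference between groups was detectable at this depth. Replicate 3 of A17α-MHCKO + NS had 0 fragments of Lep although it had the most Adipoq of the 12 libraries in CPM.

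Across the 12 libraries, the profile of Adipoq was compared with that of each gene by the root mean square difference of log2 CPM, each gene centred on its own mean. Cfd differed from Adipoq by 0.36, Plin1 by 0.41, Retn by 0.42 and Cidec by 0.50 on this log2 scale, while the median over 14451 genes with a mean of at least 1 CPM was 1.85. Ucp1 differed by 1.54, Lep by 1.77, Cidea by 1.82, Plin4 by 2.01 and Fabp4 by 2.05. Of the 14451 genes outside the 10, the nearest to Adipoq were 1500015O10Rik at 0.58, Car3, a carbonic anhydrase abundant in fat, at 0.63 and Epyc, a small proteoglycan, at 0.75. Car3 was at 0.693, 56.2 and 0.251 CPM in A17fl/fl + NS and between 7.53 and 41.2 CPM in the other 9 libraries. The genes nearest to the mean profile of the 9 members in the model were Sall1 at 0.51, Gal3st2b at 0.52, Aqp4 at 0.54 and Cdh11 at 0.56, with Pdzrn4, Slc38a1, Kcnc2, A230056P14Rik, Gm31520 and Gm26672 up to 0.59, against a median of 1.22. The points of such a profile share their libraries and depth, and likeness is a description only.

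In the 10 libraries with at least 30 Adipoq fragments, the ratio of each gene's fragments to those of Adipoq was compared between hearts. For Cfd the ratio was between 3.67 and 7.93 (median 5.77), for Cidec between 1.16 and 2.10 (median 1.48), for Plin1 between 0.686 and 1.54 (median 0.884) and for Retn between 0.348 and 1.02 (median 0.590). These 4 ratios spanned 2.16-fold, 1.82-fold, 2.25-fold and 2.93-fold. For Ucp1 the ratio ran from 0 to 1.26 with a median of 0.265. The brown fat gene thus did not keep a fixed proportion to Adipoq. Lep, which had few fragments, did not keep one either, with a ratio from 0 to 0.193 and a median of 0.0427. Of Lep and Adipoq fragments together, Lep took 0% (exact 95% binomial interval 0 to 2.34) in replicate 3 of A17α-MHCKO + NS. It took 16.2% (9.72 to 24.7) in replicate 1 of A17α-MHCKO + DOX, and these intervals did not overlap. The lack of a fixed proportion was thus not particular to Ucp1.

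Ucp1 was at 0.289, 4.67 and 0 CPM in A17fl/fl + NS, at 0.0629, 1.97 and 1.62 CPM in A17fl/fl + DOX, at 0.309, 4.28 and 11.4 CPM in A17α-MHCKO + NS and at 1.89, 0 and 0.182 CPM in A17α-MHCKO + DOX. It was thus highest in replicate 3 of A17α-MHCKO + NS, with 197 fragments, and at 0 to 5 fragments in 6 hearts spread over all 4 groups. Of the fragments of Ucp1 and Adipoq together, Ucp1 took 55.8% in that library (exact 95% binomial interval 50.5 to 61.1), 41.1% in replicate 2 of A17fl/fl + NS (34.0 to 48.4) and 37.4% in replicate 2 of A17α-MHCKO + NS (31.5 to 43.5). In the DOX hearts the share was 3.03% (0.0767 to 15.8), 27.6% (19.7 to 36.7) and 15.95% (10.7 to 22.5) in A17fl/fl + DOX. It was 25.4% (17.9 to 34.3), 0% (0 to 7.87) and 5.88% (1.23 to 16.2) in A17α-MHCKO + DOX. In replicate 1 of A17α-MHCKO + NS the share was 12.5% (4.19 to 26.8), and in replicate 1 of A17fl/fl + NS it rested on 5 of 10 fragments. The shares of the saline hearts and of the DOX hearts thus overlapped. The intervals cover counting error only, not the spread between mice. The genes nearest to Ucp1 were Pck1 at 1.39, Fxyd3 at 1.42 and Aldh1l1 at 1.46 on the log2 scale, against a median over all genes of 2.18.

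**Figure D2:**
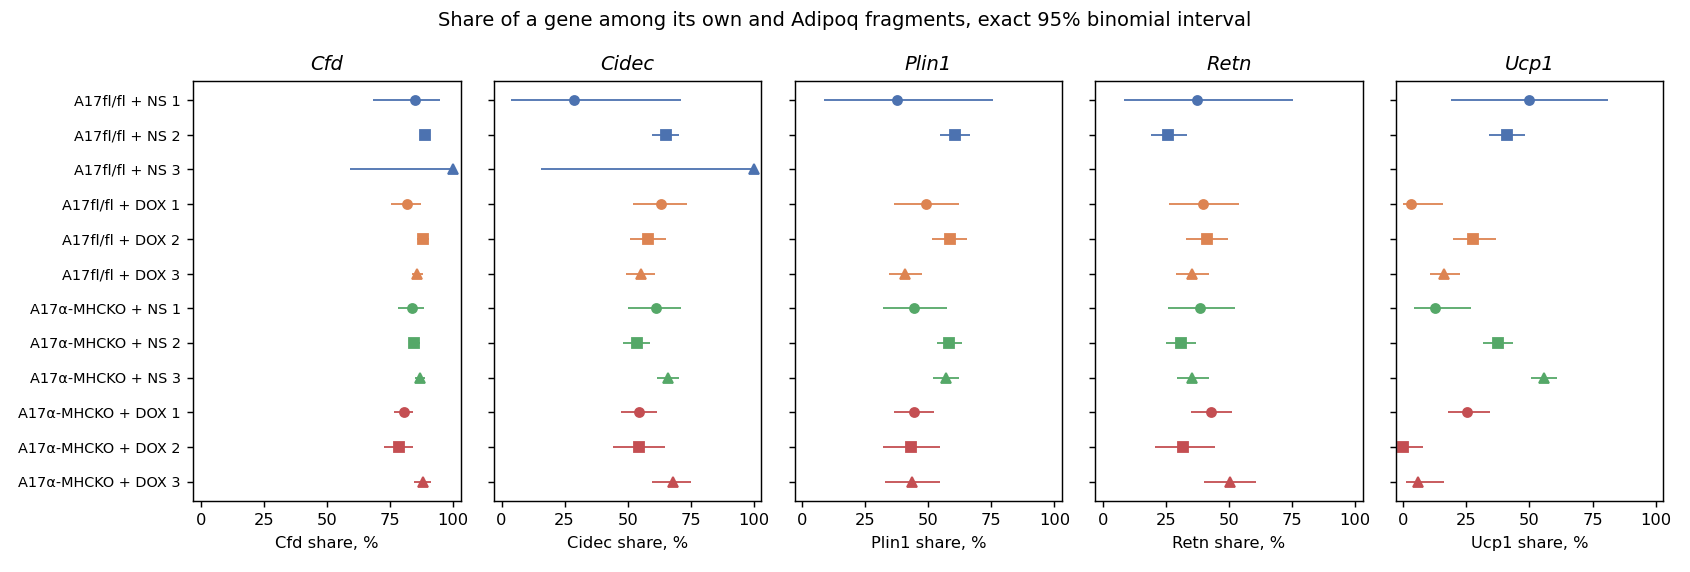
Share (%) of Cfd, Cidec, Plin1, Retn and Ucp1 among the gene's own and Adipoq's fragments in each of the 12 libraries, with exact 95% binomial intervals as bars (no point where both genes had 0 fragments). In libraries with at least 30 Adipoq fragments Cfd stayed between 78.6% and 88.8%, whereas Ucp1 ranged from 0% to 55.8%.

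Plin4, Cidea and Fabp4 were present in every heart, also in the 2 in which the genes above were near 0. Fabp4 encodes a fatty acid binding protein that fat cells, macrophages and capillary endothelium all make. Fabp4 was at 843, 354 and 860 CPM in A17fl/fl + NS and at 656, 618 and 631 CPM in A17fl/fl + DOX. It was at 790, 508 and 562 CPM in A17α-MHCKO + NS and at 1080.4, 799 and 825 CPM in A17α-MHCKO + DOX. The lowest value was in replicate 2 of A17fl/fl + NS, the heart of that group with the most Adipoq. The 10 endothelial markers were also at their lowest summed level in that library, 1013 CPM against 1291 to 1597 in the other 11. So were the 8 macrophage markers, at 696 CPM. The highest Fabp4, in replicate 1 of A17α-MHCKO + DOX, stood beside an endothelial sum of 1299 CPM, near the low end of that range. Which cells gave the Fabp4 fragments was not tested.

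Cidea encodes a droplet protein known from brown fat. Cidea was at 18.9, 16.8 and 26.9 CPM in A17fl/fl + NS, at 20.8, 24.3 and 28.0 CPM in A17fl/fl + DOX, at 23.7, 24.7 and 23.1 CPM in A17α-MHCKO + NS and at 35.3, 27.0 and 29.4 CPM in A17α-MHCKO + DOX. It did not follow Ucp1, and its highest heart had 1.89 CPM of Ucp1. Plin4 encodes a perilipin of fat and of striated muscle. Plin4 was at 132, 239 and 274 CPM in A17fl/fl + NS, at 153, 127 and 168 CPM in A17fl/fl + DOX, at 202, 97.3 and 166 CPM in A17α-MHCKO + NS and at 141, 132 and 150 CPM in A17α-MHCKO + DOX. The 3 hearts highest in Plin4 were also the 3 highest in Pdk4, a kinase that turns fuel use from glucose to fatty acids, with 2264 CPM in replicate 3 and 712 CPM in replicate 2 of A17fl/fl + NS and 834 CPM in replicate 1 of A17α-MHCKO + NS. In GENCODE M21, Plin4 overlaps Hdgfl2 and Cidea overlaps B430212C06Rik, each on the opposite strand, and the strand setting of the counting is not given in the sources used here.

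The 4 groups were compared with edgeR's quasi-likelihood test by the limits of the study, a log2 fold change beyond 1 in either direction, p under 0.05 before adjustment and, in at least 1 of the groups, an average FPKM above 1. None of the 9 members in the model was called in any of the 5 contrasts. For A17fl/fl + DOX against A17fl/fl + NS, 0 of 9 were called and 2.82% of the 16101 tested genes. Plin1 could not be called here whatever its change, as the FPKM limit was not met. Its average FPKM was 0.553 in A17fl/fl + NS and 0.794 in A17fl/fl + DOX. The log2 fold changes were 1.93 ± 1.01 for Retn, 1.16 ± 1.11 for Adipoq, 0.84 ± 1.20 for Cfd, 0.72 ± 1.17 for Cidec, 0.52 ± 1.24 for Plin1, -0.44 ± 1.57 for Ucp1, 0.22 ± 0.19 for Cidea, -0.11 ± 0.30 for Fabp4 and -0.52 ± 0.29 for Plin4 (± SE). The median of the 9 was 0.52, against -0.04 over all tested genes. In 0 of 9 did the groups lie apart, against 13.3% of all tested genes.

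These values rested on 1 heart. Without replicate 2 of A17fl/fl + NS the log2 fold change was 5.07 for Adipoq, 4.98 for Cfd, 5.05 for Retn, 5.79 for Cidec and 5.70 for Plin1, and the median of the members was 3.98. Then 4 members (Adipoq, Cfd, Retn and Cidec) were called higher in DOX, against 1.86% of all genes tested, and the saline side rested on 5 fragments of Adipoq in 2 libraries. Plin1 and Ucp1 could not be called whatever their change, as the FPKM limit was not met. Their average FPKM was 0.794 and 0.746 in A17fl/fl + DOX and lower in the saline hearts left. Leaving out any other library called 0 members. Plin1 was at -0.06 without replicate 3 of A17fl/fl + NS, where Fabp4 was at 0.09, and Ucp1 ran from -1.02 without that library to 2.97 without replicate 2.

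For A17α-MHCKO + DOX against A17α-MHCKO + NS, 0 of 9 members were called and 0.658% of all tested genes. The log2 fold changes were -2.94 ± 1.64 for Ucp1, -1.43 ± 1.25 for Plin1, -1.01 ± 1.21 for Cfd, -0.85 ± 1.16 for Cidec, -0.69 ± 1.09 for Adipoq, -0.17 ± 0.93 for Retn, -0.14 ± 0.29 for Plin4, 0.36 ± 0.18 for Cidea and 0.54 ± 0.30 for Fabp4, with a median of -0.69 against 0.00 over all tested genes. Fabp4 and Cidea were the 2 of 9 in which the DOX hearts lay above all saline hearts, and the groups lay apart in 16.9% of all tested genes. In a fit of these 2 groups alone Plin1 and Ucp1 were called lower, against 0.616% of all genes. Without replicate 1 of A17α-MHCKO + DOX, the DOX heart with the most Ucp1, Ucp1 alone was called lower at -5.73, against 0.170% of all genes. Without replicate 3 of A17α-MHCKO + NS, Ucp1 was at -1.75 and Retn at 0.29, and without replicate 1 of that group Plin4 was at 0.10.

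For A17α-MHCKO + NS against A17fl/fl + NS, which shares the saline hearts above, 0 of 9 members were called and 2.99% of all tested genes. The log2 fold changes were 1.92 for Retn, 1.69 for Ucp1, 1.39 for Adipoq, 1.19 for Cidec, 1.18 for Plin1, 1.003 for Cfd, 0.19 for Cidea, -0.15 for Fabp4 and -0.47 for Plin4, with a median of 1.18 against -0.03 over all tested genes. The groups lay apart in 0 of 9 members and in 10.9% of all tested genes. Without replicate 2 of A17fl/fl + NS, 6 members (Plin1, Ucp1, Adipoq, Cfd, Retn and Cidec) were called higher in the knockout, against 2.27% of all genes, and Adipoq was at 5.30. Without replicate 3, Fabp4 was at 0.05.

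For A17α-MHCKO + DOX against A17fl/fl + DOX, 0 of 9 members were called and 0.205% of all tested genes, and the median of the members was -0.37 against 0.01. Plin1 and Ucp1 could not be called here whatever their change, as the FPKM limit was not met. Average FPKM was 0.794 and 0.746 for them in A17fl/fl + DOX, and 0.452 and 0.409 in A17α-MHCKO + DOX. The log2 fold change was 0.51 ± 0.30 for Fabp4, 0.33 ± 0.18 for Cidea, -0.09 for Plin4, -0.18 for Retn, -0.37 for Cidec, -0.46 for Adipoq, -0.77 for Plin1, -0.81 for Ucp1 and -0.85 for Cfd. Without replicate 3 of A17fl/fl + DOX, the heart of that group with the most Adipoq, Adipoq was at 0.07, Cidec at 0.03 and Retn at 0.19. Without replicate 1 of A17α-MHCKO + DOX, Ucp1 was at -3.60. Fabp4 was the 1 member of 9 whose groups lay apart, against 14.1% of all tested genes. For the interaction of genotype and treatment, 0 of 9 members were called and 2.13% of all tested genes, with a median of -1.85 against 0.06. Without replicate 2 of A17fl/fl + NS, 6 members (Plin1, Ucp1, Adipoq, Cfd, Retn and Cidec) had a called negative interaction, against 2.49% of all genes.

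At an adjusted p under 0.05 (Benjamini-Hochberg over all tested genes), edgeR called 0, 0, 3, 1 and 0 genes in these 5 contrasts, which is 0%, 0%, 0.0186%, 0.00621% and 0% of those tested, none of them a member. DESeq2 called 151, 41, 174, 3 and 21 genes. At an unadjusted p under 0.05, edgeR called 1721, 1033, 1633, 435 and 965 genes, 0 of them members.

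**Figure D3:**
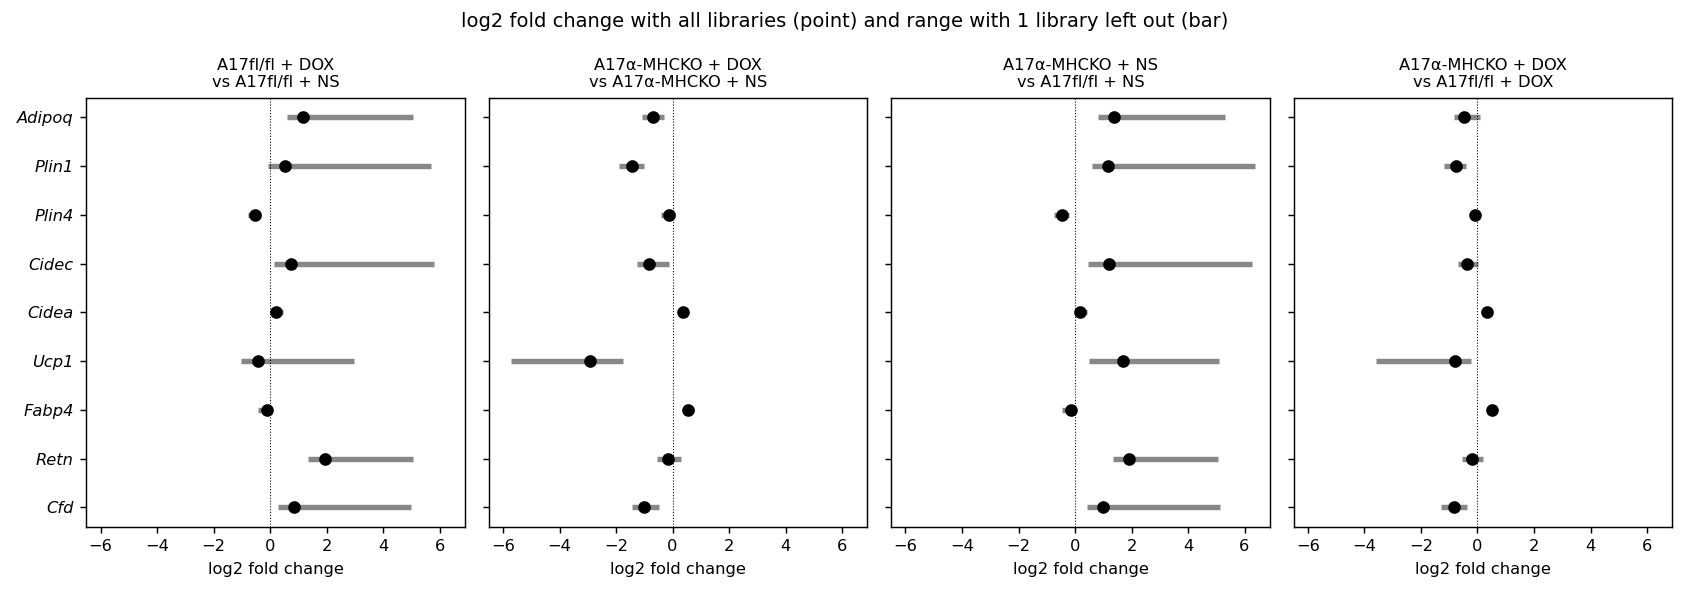
Log2 fold change (horizontal axes) of the 9 genes in the model for the 4 comparisons of 2 groups, with all 12 libraries (point) and the range when each library was left out in turn (bar). In both comparisons with A17fl/fl + NS the bars of Adipoq, Plin1, Cidec, Retn and Cfd reach about 5 to 6, the value without replicate 2 of that group, while Plin4, Cidea and Fabp4 stay within 1 of 0 in all 4.

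Genes of other cell types were read beside the members, from lists that share no gene with them. The summed level of 9 atrial markers was 1064, 7695 and 398 CPM in A17fl/fl + NS, 5010.1, 2607 and 1863 in A17fl/fl + DOX, 4039, 6741 and 8737 in A17α-MHCKO + NS and 1899, 1914 and 4163 in A17α-MHCKO + DOX. Myl7, the atrial myosin light chain, was at 0, 1019 and 0.0626 CPM in A17fl/fl + NS and between 125 and 769 CPM in the other 9 libraries. Sln, the sarcolipin gene, was at 0, 392 and 0 CPM and between 63.8 and 365 CPM. The hearts nearly without Adipoq were thus the hearts nearly without Myl7 and Sln, and the other 10 libraries carried both. The summed level in those hearts was mostly Nppa, at 1019.5 CPM in replicate 1 and 331 CPM in replicate 3. Some markers of the list did not follow Myl7. Bmp10 was at 0 CPM in replicate 1 of A17α-MHCKO + NS, where Myl7 was at 464 CPM. Nr2f2 was at 19.7 CPM in both replicate 2 and replicate 3 of A17fl/fl + NS.

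Of 8 mesothelial markers, whose cells cover the heart's surface, the summed level was 16.9, 167 and 9.59 CPM in A17fl/fl + NS, 54.1, 29.5 and 27.6 in A17fl/fl + DOX, 27.2, 109 and 93.2 in A17α-MHCKO + NS and 15.1, 31.1 and 22.2 in A17α-MHCKO + DOX. Upk3b was at 0, 64.6 and 0.188 CPM in A17fl/fl + NS and between 0.189 and 36.9 CPM in the others. Wt1 and Krt19, also of this list, did not follow Upk3b. Wt1 was at 8.89, 5.62 and 4.89 CPM in A17fl/fl + NS, and its value in replicate 1 was the highest of all libraries. Krt19 was at 7.21, 10.5 and 0.439 CPM in that group. Wt1 and Krt19 made up most of the summed level in replicate 1. Adipoq did not follow these markers in every heart. Replicate 3 of A17fl/fl + DOX had 8.51 CPM of Adipoq with 193 CPM of the atrial Myl7, and replicate 1 of A17α-MHCKO + DOX had 5.54 CPM of Adipoq with 0.189 CPM of the mesothelial Upk3b. Scgb1a1, a secreted protein of the airway lining, had 2019 fragments (121 CPM) in replicate 2 of A17fl/fl + NS and 0 to 4 in the other 11 libraries. The part of these tissues in the levels of the fat-cell genes was not tested.

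**Figure D4:**
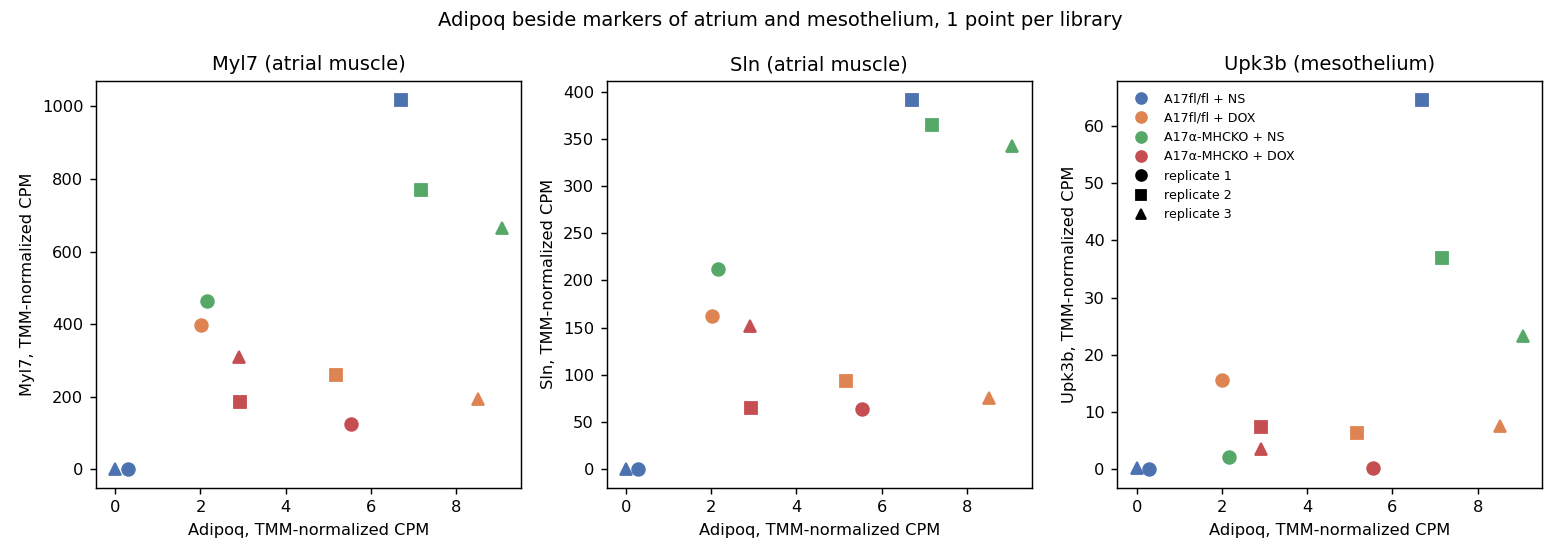
Adipoq (horizontal axes) against the atrial genes Myl7 and Sln and the mesothelial gene Upk3b (vertical axes), all in TMM-normalized CPM, 1 point per library by group (colour) and replicate (shape). Replicates 1 and 3 of A17fl/fl + NS lie close to the origin of all 3 panels, and replicate 2 of that group is the highest point in each.

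Replicates 1 and 3 of A17fl/fl + NS were singled out after these values were seen. The members were also chosen by their levels in these libraries. The counts below, and the share of all tested genes beside them, are thus a description and carry no weight as a test. With a library at 0 taken as holding up to 3 fragments, and a library with 3 or fewer never counted as higher, both lay below the other 10 libraries in 5 of 9 members (Plin1, Adipoq, Cfd, Retn and Cidec), each by more than 4-fold, and in 6.09% of all tested genes, by more than 4-fold in 0.224%. They did so in 6 of 9 atrial markers (Hamp, Dkk3, Sln, Nppa, Myl4 and Myl7), in 2 of 8 mesothelial markers (Msln and Gpm6a) and in 2 of 8 fibroblast markers. They also did so in 2 of 6 nerve and glia markers (Dbh and S100b), in 1 of 4 skeletal muscle markers and in 1 of 10 endothelial markers. The count was 0 of 10 for cardiomyocyte markers, 0 of 8 for macrophage markers, 0 of 4 for lymphocyte and thymus markers and 0 of 1 for airway and lung markers.

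Other fat genes were read from a list of 35, of which 34 were tested. These 2 saline hearts lay below the rest in 2 of the 34 (5.88%), near the 6.09% of all tested genes. The 2 genes were Car3 and Pck1, an enzyme of glycerol synthesis in fat. Pck1 had 0 fragments in replicates 1 and 3 of A17fl/fl + NS and was at 16.4 CPM in replicate 2. Adrb3, the β3-adrenergic receptor of fat cells, had 0, 14 and 0 fragments in that group, but 4 hearts of the other groups had only 1 to 3. Other genes of the list were present in those 2 hearts, such as Lipe, the hormone-sensitive lipase, at 53.0 and 127 CPM, and Pparg, the regulator of fat-cell differentiation, at 18.9 and 26.9 CPM. By the limits of the study, 1 of the 34 was called for DOX in A17fl/fl, against 2.82% of all tested genes. This was Lrg1, a secreted glycoprotein, lower at -1.68 ± 0.58 (edgeR adjusted p = 0.401). Lrg1 was at 427 CPM in replicate 1 of A17fl/fl + NS, the heart with the high macrophage markers, and between 42.2 and 89.3 CPM in the other 11. Lrg1 was also the 1 of the 34 called for the knockout under saline, lower at -1.65 ± 0.58 (edgeR adjusted p = 0.365), against 2.99% of all tested genes. Without that heart, 0 of the list were called for DOX in A17fl/fl.

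In A17α-MHCKO, DOX called 1 of the 34, against 0.658% of all tested genes. This was Fasn, fatty acid synthase, lower at -1.41 ± 0.62 (edgeR adjusted p = 0.767). Between the genotypes under DOX 0 of 34 were called, against 0.205% of all tested genes. Fasn was at 31.7, 211 and 124 CPM in A17α-MHCKO + NS and at 34.6, 60.9 and 42.0 CPM in A17α-MHCKO + DOX, so these groups overlapped. In the interaction 4 of the 34 were called, against 2.13% of all tested genes. Fasn was at -2.46 ± 0.87 and Scd1, a desaturase of fatty acid synthesis, at -2.24 ± 0.89. Lrg1 at 1.83 ± 0.80 and Sncg, a synuclein, at 1.09 ± 0.38 lay in the other direction (edgeR adjusted p = 0.828 for each of the 4). The medians of the list in the 5 contrasts were -0.11, -0.31, 0.07, -0.05 and -0.19.

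Of 20 further genes known from brown fat, 14 were tested. These 2 saline hearts lay below the rest in 3 (21.4%, against 6.09% of all tested genes), Kcnk3, Cited1 and Cox7a1, none by over 4-fold. The 20 genes summed to 1089, 2318 and 4029 CPM in A17fl/fl + NS, where Ucp1 was at most at 4.67 CPM. Which cells gave the fragments of these genes was not tested. DOX in A17fl/fl called 1 of the 14, against 2.82% of all tested genes, Pdk4, lower at -2.57 ± 0.94 (edgeR adjusted p = 0.414). Under DOX the knockout called 1 of the 14, against 0.205% of all tested genes. This was Cox8b, a cytochrome c oxidase subunit of heart and brown fat, higher at 1.07 ± 0.27 (edgeR adjusted p = 0.9998). Its groups lay apart, as did those of 14.1% of all tested genes, and the other 3 contrasts called 0 of 14. Of 10 lipid genes that heart muscle itself uses, DOX in A17fl/fl called 1, against 2.82% of all tested genes. This was Angptl4, an inhibitor of lipoprotein lipase, lower at -2.43 ± 0.81 (edgeR adjusted p = 0.388), and the other 4 contrasts called 0 of 10. In these 10 genes the 2 saline hearts were below the rest in 0.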

How the data were processed

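Heart RNA of 12 mice was sequenced as stranded paired-end mRNA libraries, 3 mice for each of 4 groups, mapped to samples by title. The authors deposited 1 table with a raw fragment count per gene, made with StringTie, and an FPKM (fragments scaled by gene length and library total, without a TMM factor) for each library. The submitters' processing notes list CASAVA 1.8, HISAT2, SAMtools 1.3.1, edgeR and GRCm39, and the annotation release is not given in the sources used here. 0 columns were left unused.

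All genes were fitted by edgeR 4.0.16 under R 4.3.3 (filterByExpr, 16101 genes, TMM, glmQLFit with 4 group means, glmQLFTest, Benjamini-Hochberg adjustment), which was tested on simulated data. SE are approximate, taken from each log2 fold change and its F statistic. The deposited FPKM served for the expression limit and for levels between genes. Log2 CPM used a prior count of 2. DESeq2 1.42.0, RLE factors, other filters and samples, a mean CPM over 1 and each library left out were alternatives. Within groups, chi-square per degree of freedom between libraries was 11.1 to 170, so no library was counted more than once.

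The members, the other lists and their tests were chosen with earlier results of these data known. Genes named were the members, up to 3 called genes per direction of each other fat, brown fat or heart lipid list and contrast, the 10 genes nearest to the members' mean profile and the 3 nearest to Adipoq and to Ucp1 by root mean square difference, and defining markers. Pdk4 beside Plin4, Scgb1a1, Lipe and Pparg were added after their values were seen. The symbol of 1 listed gene, Trarg1, is Tusc5 in the table. Promoters and gene overlaps came from RefSeq and GENCODE M21 on GRCm38.p6, another build than the counts, so no gene coordinates are given.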

Additional observations from a re-analysis of the deposited data

How the results depend on the processing

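Of 205 values recomputed under alternatives, 159 kept within the range set for them and 46 moved. For medians the range was 1.15 log2 units, the SD of the members' mean log2 CPM within groups. A median could thus change sign and still keep within it. Counts of 0 calls that stayed at 0 were also taken as kept. With each library left out, the members called ran from 0 to 4 for DOX in A17fl/fl, 0 to 1 for DOX in A17α-MHCKO, 0 to 6 for the genotype under NS, 0 to 0 for the genotype under DOX and 0 to 6 for the interaction, and the median log2 fold change of the members from 0.10 to 3.98, -1.02 to -0.11, 0.48 to 5.07, -0.62 to 0.05 and -5.49 to -1.08. The calls of 4 and 6 and the far medians came without replicate 2 of A17fl/fl + NS, and the 1 without replicate 1 of A17α-MHCKO + DOX. The other fat-cell genes called ran from 0 to 2, 0 to 3, 1 to 5, 0 to 2 and 1 to 7, against 1, 1, 1, 0 and 4 with all libraries. With at least 10 counts in every library, which left 3 members (Plin4, Cidea and Fabp4), the medians of all 5 contrasts changed sign, from 0.52 to -0.10 and from -0.69 to 0.34 for DOX in A17fl/fl and in A17α-MHCKO, from 1.18 to -0.13 and from -0.37 to 0.32 for the genotype under NS and under DOX, and from -1.85 to 0.37 for the interaction. A fit of the 2 groups compared called 2 members for DOX in A17α-MHCKO, and 0, 3, 0 and 2 other fat-cell genes in the 4 comparisons. For DOX in A17α-MHCKO, DESeq2 and no filter each called 2 other fat-cell genes and a mean CPM over 1 called 3, for the genotype under NS each of these called 2, and for the genotype under DOX they called 2, 1 and 1. In the main fit Plin4, Cidea and Fabp4 were already at -0.52, 0.22 and -0.11 for DOX in A17fl/fl. The medians thus changed sign with the genes they covered. The cause of the remaining changes was not tested.

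A block for the replicate number called 2 other fat-cell genes for the genotype under DOX and 0 members in every contrast, and it moved the genes called for DOX in A17fl/fl from 454 to 281. The numbers share no stated litter or batch. Deviations of same-numbered libraries correlated between -0.10 and 0.22 in 18 pairs, 3 of them over 0.1, against -0.26 to 0.32 for other pairs. These ranges overlap, and they cannot show whether same-numbered libraries shared a litter or batch.

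Over all genes, those called for the genotype under NS moved from 482 to 266 with 2 groups and 1066 without replicate 2 of A17fl/fl + NS. Without that replicate, 987 and 963 were called for DOX in A17fl/fl and the interaction. For members with few fragments, such as Lep with at most 20 and Retn with at most 86, the depth sets the limit of detection. The 3 mice of a group are separate animals, and the spread between them exceeded counting error.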
